A study of Homo sapiens with 4 samples.

Results

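The APOBEC3 cluster is a run of 7 cytidine deaminase genes on the plus strand of human chromosome 22: APOBEC3A, APOBEC3B, APOBEC3C, APOBEC3D, APOBEC3F, APOBEC3G and APOBEC3H. The members were chosen by name, and each was represented by its annotated isoform with the largest mean count. They are 7 of 62218 genes and 31 of 244825 transcripts in the counted annotation (GRCh38). Their isoforms reached from chr22:38952741-39104067, a stretch of 151327 bases.

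APOBEC3 enzymes remove the amino group of cytosine in single-stranded DNA, which turns it into uracil. They restrict retroviruses and endogenous retroelements by mutating or blocking the DNA copy made during reverse transcription, and primates carry several tandem copies of the gene with either one zinc-coordinating domain or a pair of them. APOBEC3B resides mainly in the nucleus, whereas APOBEC3D, APOBEC3F and APOBEC3G are mainly cytoplasmic, and most members are best known from leukocytes.

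The study used H1 cells, an established line of wild-type human embryonic stem cells (hESCs). Their total RNA was reverse transcribed, and the cDNA was sequenced with Nanopore long reads. Naïve hESCs were grown in FINE culture (2 libraries) and primed hESCs in mTeSR (2 libraries). The naïve cells had been derived from primed H1 cells and were kept at low oxygen in a medium with kinase inhibitors, so that the states differ in medium and oxygen as well as in pluripotency. No source used here says whether the libraries of a state came from separate cultures, and all p-values therefore measure only the spread between these libraries, which may be technical.

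The files held 129276054 to 161548901 alignment counts per library over all transcripts, and 23542375 to 30978783 after each gene was reduced to 1 isoform. Where 4 values are given in a row, those of the naïve libraries come first. All 8 markers of naïve hESCs were lower in primed hESCs (summed level 1042 to 1227 against 76.7 to 78.3 CPM, counts scaled to a common library size), although 1 of them, KLF17, was not lower when plain library size replaced TMM, edgeR's scaling for library composition. KLF17 had 2200, 2423, 2083 and 2236 counts, and its 70.7 and 72.9 CPM in primed hESCs made up most of that summed level. All 8 markers of primed hESCs were higher (141 to 146 against 723 to 819 CPM) with either scaling. Of 10 trophoblast markers, 9 were lower in primed hESCs and 1, KRT7, was not called with TMM, against 8 lower and 1 higher, KRT7, with library size (42, 74, 103 and 81 counts). Their summed level was 2085 to 2448 CPM in naïve and 5.80 to 7.06 CPM in primed hESCs. In the primed libraries VGLL1 and S100P were at 0, and the hormone subunit CGA had 35747, 47550, 0 and 1 counts. This list moved with the state, as did every difference below, and its part in them was not tested. Of 8 leukocyte markers, 4 could be tested, of which 2 were higher and 1 lower in primed hESCs with TMM, and 2 higher and 0 lower with library size. They summed to 2.70 to 2.82 CPM in naïve and 4.99 to 6.19 CPM in primed hESCs, and the defining genes PTPRC, CD3E and LYZ were at 0 in both naïve libraries and had 0 to 3 counts in the primed ones. The markers that were higher were CD4, with 10, 11, 90 and 124 counts, and SPI1, with 1, 3, 12 and 11 counts.

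The sequences of the zinc-coordinating sites show how the copies are related and are printed because near-identical copies limit what an alignment can be assigned to. Each runs, on the GRCh38 plus strand, from the zinc-binding histidine codon to the last cysteine codon, and capitals mark the codons of His-Ala-Glu, Pro-Cys and the final Cys. Of 11 sites, 9 are shown as 6 sequences, and the first sites of APOBEC3D and APOBEC3G are not printed.
APOBEC3A, exon 4, chr22:38961420-38961530, and APOBEC3B second site, exon 6, chr22:38991365-38991475: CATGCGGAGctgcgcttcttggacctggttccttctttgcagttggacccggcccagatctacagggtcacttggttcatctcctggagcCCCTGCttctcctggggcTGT
APOBEC3B first site, exon 3, chr22:38985833-38985937, and APOBEC3F first site, exon 3, chr22:39044962-39045066: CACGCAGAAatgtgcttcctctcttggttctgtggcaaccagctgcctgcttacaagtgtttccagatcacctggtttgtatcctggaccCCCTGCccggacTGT
APOBEC3D second site, exon 6, chr22:39031715-39031819, and APOBEC3F second site, exon 6, chr22:39052095-39052199: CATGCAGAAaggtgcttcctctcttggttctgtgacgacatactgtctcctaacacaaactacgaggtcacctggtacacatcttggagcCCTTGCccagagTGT
APOBEC3C, exon 3, chr22:39017787-39017891: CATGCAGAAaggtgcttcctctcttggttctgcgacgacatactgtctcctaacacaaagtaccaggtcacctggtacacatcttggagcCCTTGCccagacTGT
APOBEC3G second site, exon 6, chr22:39086312-39086416: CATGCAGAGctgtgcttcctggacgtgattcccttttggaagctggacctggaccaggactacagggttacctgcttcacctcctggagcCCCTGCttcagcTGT
APOBEC3H, exon 3, chr22:39101246-39101350: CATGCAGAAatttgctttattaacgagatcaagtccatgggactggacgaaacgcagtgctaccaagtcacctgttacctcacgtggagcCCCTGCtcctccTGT

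APOBEC3A, APOBEC3C and APOBEC3H carried 1 such site in 183 to 199 codons, and APOBEC3B, APOBEC3D, APOBEC3F and APOBEC3G carried 2 in 373 to 386 codons. The site of APOBEC3A was identical over all 111 bases to the second site of APOBEC3B, and the first site of APOBEC3B was identical throughout to that of APOBEC3F. The second sites of APOBEC3D and APOBEC3F were likewise identical, and APOBEC3C matched them at 96.2% of bases. Over whole spliced transcripts the best local alignment had 94.1% identity over 750 bases for APOBEC3A and APOBEC3B, 90.7% over 583 bases for APOBEC3B and APOBEC3F, and 88.9% over 1934 bases for APOBEC3D and APOBEC3F. At the strict cutoff of that search APOBEC3H had no alignment with another member, although its site matched the second site of APOBEC3G at 64.2% of bases. Introns were not compared. Secondary alignments were counted, so a read could have added to more than 1 copy, and values of the members are uncertain to that extent.

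The members differed in direction between the states. APOBEC3B was higher in primed hESCs and APOBEC3H lower with either scaling, APOBEC3F and APOBEC3G were lower with TMM but not past the threshold with library size, and APOBEC3C and APOBEC3D passed it, as higher, with library size but not with TMM. APOBEC3A was too low to test. With TMM, 4 of the 6 members tested had an adjusted p under 0.05 (quasi-likelihood F-test in edgeR, Benjamini-Hochberg adjustment over 27633 genes), where the share among all genes tested was 70.0%. In that fit 1 member was higher in primed hESCs, beside 37.4% of all genes, and 3 were lower, beside 32.6%. The CPM of the states did not overlap for 5 of the 6, beside 84.4% of all genes. With library size 4 of the 6 were called (72.5% of all genes), 3 of them higher (56.2%) and 1 lower (16.3%). With either scaling the members' share of calls was close to that of all genes. The median log2 fold change (primed over naïve) of all genes was 0.08 with TMM and 0.72 with library size, and the differences between members are read against that shift. In these bulk libraries, fewer expressing cells and less RNA per cell cannot be told apart.

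**Figure D1:**
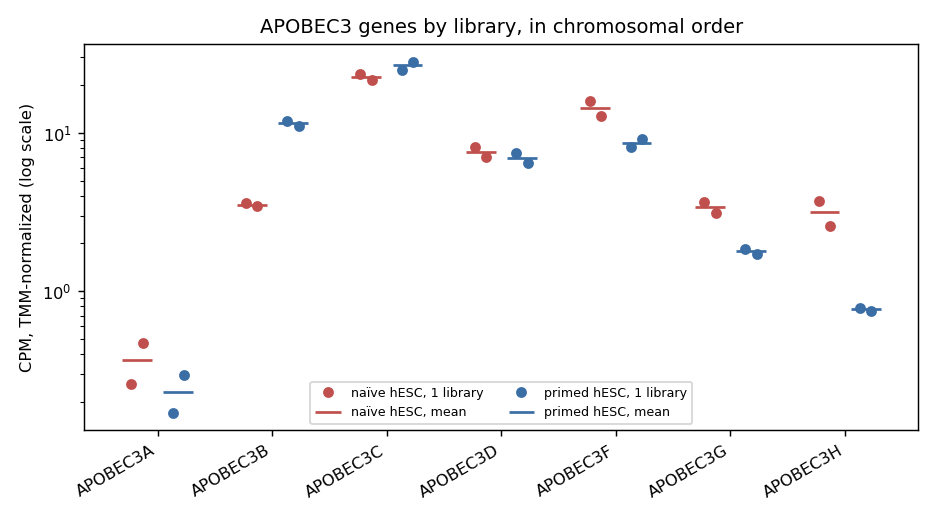
Normalized level of each APOBEC3 gene in each library (CPM with TMM, log axis, points) with the mean of each state (lines; naïve n = 2, primed n = 2). APOBEC3B sat at 3.45 to 3.60 CPM in naïve and 11.0 to 11.9 CPM in primed libraries, and APOBEC3H at 2.58 to 3.73 and 0.749 to 0.781 CPM, and both directions also held with library size.

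APOBEC3B (ENSG00000179750, chr22:38982347-38992779, 8 exons), the nuclear member known as a source of mutations in tumours, had 83, 88, 351 and 339 counts. That gave 3.60, 3.45, 11.9 and 11.0 CPM. Both primed libraries stood above both naïve ones, with replicates of a state close together. Mean levels were 3.52 ± 0.105 CPM in naïve and 11.5 ± 0.614 CPM in primed hESCs (SD, n = 2), 3.26-fold apart. The log2 fold change was 1.70 (SE 0.19; Benjamini-Hochberg adjusted p = 2.06e-10 in the edgeR test) and 2.34 with library size. Its 3′ end lies under the antisense gene APOBEC3B-AS1 (chr22:38991559-38998209, minus strand), which had 78, 78, 330 and 332 counts. Strand was not used in counting, so reads of the 2 genes cannot be told apart.

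APOBEC3H (ENSG00000100298, chr22:39097244-39104067, 5 exons), the most diverged member and one known for restricting retroviruses and retrotransposons, moved the other way. It had 86, 66, 23 and 23 counts. The levels were 3.73, 2.58, 0.781 and 0.749 CPM, with both primed libraries below both naïve ones. The log2 fold change was -2.03 (SE 0.30; adjusted p = 1.40e-07 in the same edgeR test) and -1.39 with library size. Mean levels differed 4.12-fold. Its span overlapped no other gene.

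APOBEC3F (ENSG00000128394, chr22:39040864-39055972, 7 exons), a cytoplasmic member that retroviral Vif proteins counteract, had 366, 329, 239 and 279 counts. Its levels were 15.9, 12.9, 8.11 and 9.09 CPM, so the states did not overlap. The log2 fold change was -0.74 (SE 0.17; adjusted p = 2.00e-04 in the edgeR test), but with library size it was -0.10 with an adjusted p of 0.615. APOBEC3G (ENSG00000239713, chr22:39077275-39087743, 8 exons), the member first known for editing HIV-1 DNA, had 85, 79, 54 and 53 counts. These gave 3.68, 3.09, 1.83 and 1.73 CPM, again without overlap. The log2 fold change was -0.92 (SE 0.26; adjusted p = 0.00154 in the edgeR test), and -0.29 with an adjusted p of 0.315 with library size. Without primed replicate 2, the APOBEC3G value was -0.72 with an adjusted p of 0.065. Neither span overlapped another gene.

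APOBEC3C (ENSG00000244509, chr22:39014257-39020352, 4 exons), a single-domain member with a weak effect on retroviruses and a known effect on LINE-1 elements, was the most abundant. It had 542, 552, 742 and 868 counts. The levels of 23.5, 21.6, 25.2 and 28.3 CPM did not overlap between states but lay close together. The log2 fold change was 0.25 (95% interval -0.06 to 0.55; adjusted p = 0.145 in the edgeR test). It passed the threshold with library size (0.88, adjusted p = 1.68e-05), with a filter of at least 50 counts (0.35, adjusted p = 0.0376) and without primed replicate 1 (0.49, adjusted p = 0.0223). APOBEC3D (ENSG00000243811, chr22:39021127-39033277, 7 exons), a double-domain member that Vif also targets, had 188, 180, 220 and 198 counts. Its levels of 8.14, 7.05, 7.47 and 6.45 CPM overlapped between states. The log2 fold change was -0.13 (95% interval -0.50 to 0.25; adjusted p = 0.558 in the edgeR test) with TMM, 0.51 (adjusted p = 0.0171) with library size and 0.14 (adjusted p = 0.609) without primed replicate 2.

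APOBEC3A (ENSG00000128383, chr22:38952751-38963183, 6 exons), an interferon-induced deaminase of myeloid cells, had 6, 12, 5 and 9 counts. That is 0.170 to 0.470 CPM. The states overlapped, and no difference was detectable at this depth. In a fit with no filter on low counts its log2 fold change was -0.66 with an adjusted p of 0.40 (edgeR, Benjamini-Hochberg).

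**Figure D2:**
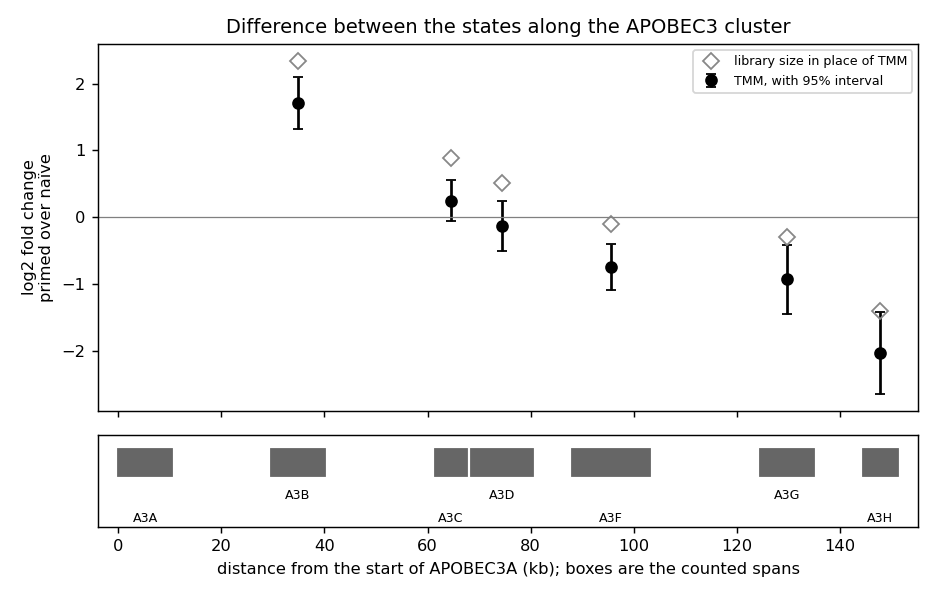
Log2 fold change (primed over naïve) of the 6 members tested, placed by distance along the cluster in kb; filled points are TMM values with 95% intervals, diamonds are values with library size, and boxes show the counted spans. From APOBEC3B to APOBEC3H the TMM values were 1.70, 0.25, -0.13, -0.74, -0.92 and -2.03, and with library size the APOBEC3D value was above 0.

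In chromosomal order the fold changes of the 6 tested members descended at each step, from 1.70 at APOBEC3B to -2.03 at APOBEC3H with TMM and from 2.34 to -1.39 with library size. The 95% intervals of APOBEC3F (-1.08 to -0.39) and APOBEC3G (-1.44 to -0.41) each held the value of the other, and the order itself was noticed in the data and not tested.

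The make-up of the cluster's counts does not depend on the scaling between libraries. The 7 members summed to 1356, 1306, 1634 and 1769 counts, or 58.7, 51.1, 55.5 and 57.6 CPM, and the summed level of the states overlapped. APOBEC3B supplied 6.43% ± 0.436 of these counts in naïve and 20.3% ± 1.64 in primed hESCs (SD, n = 2). APOBEC3F supplied 26.1% ± 1.27 and 15.2% ± 0.810, and APOBEC3H supplied 5.70% ± 0.911 and 1.35% ± 0.0760. The share of APOBEC3G was 6.16% ± 0.155 in naïve and 3.15% ± 0.218 in primed hESCs. APOBEC3C was the largest contributor in both states, at 41.1% ± 1.62 and 47.2% ± 2.59. APOBEC3D stayed between 12.3% ± 1.61 and 13.8% ± 0.0578, and APOBEC3A supplied under 1% in each library. A share falls when another member's share rises, so these values are not independent of each other.

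Ratios between 2 members within a library showed the same without any scaling. Counts of APOBEC3B over those of APOBEC3H were 0.965, 1.33, 15.3 and 14.7, so that near-equal counts in naïve hESCs became unequal in primed hESCs. The ratio of APOBEC3B to APOBEC3F, which share an identical first site, was 0.227, 0.267, 1.47 and 1.22, which is 5.43-fold higher in primed hESCs. APOBEC3B over APOBEC3G was 0.976, 1.11, 6.50 and 6.40. The ratio of APOBEC3C to APOBEC3F moved less, from 1.48 and 1.68 to 3.10 and 3.11. These ratios are given as values, with no test.

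**Figure D3:**
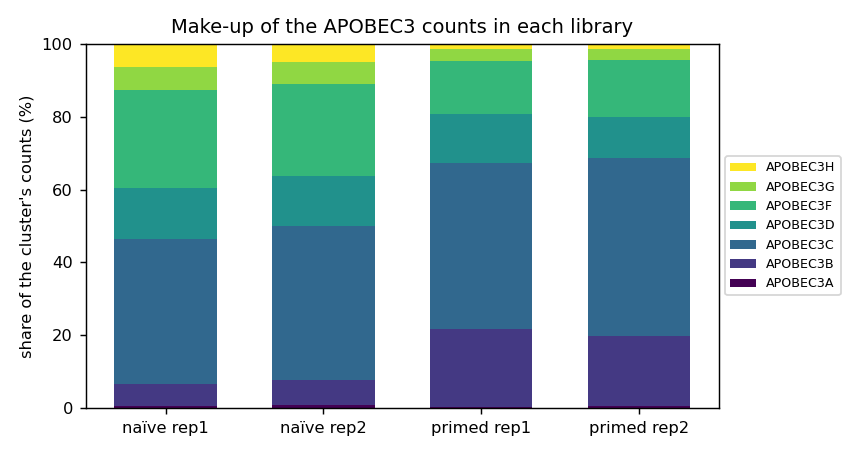
Share of the summed APOBEC3 counts (percent, stacked bars) that each member supplied in each of the 4 libraries. The APOBEC3B band widened from 6.43% in naïve to 20.3% in primed hESCs on average, and those of APOBEC3F, APOBEC3G and APOBEC3H narrowed.

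The members were also ranked within a state by CPM per kilobase of exonic length of the chosen isoform. Counts covered whole spans with introns, so this order depends on the length used and is not a direct order of transcript numbers. In naïve hESCs, for example, APOBEC3F was at 14.4 and APOBEC3H at 3.16 CPM before division by length. Per kilobase of exonic length, APOBEC3C led in naïve hESCs at 8.53 ± 0.497 CPM per kb (SD, n = 2). APOBEC3F (3.20 ± 0.467), APOBEC3H (3.07 ± 0.784) and APOBEC3D (3.02 ± 0.308) followed and did not differ beyond the spread of their libraries. APOBEC3B (2.21 ± 0.0662) and APOBEC3G came next and also overlapped, and APOBEC3A was last at 0.247 ± 0.101. In primed hESCs APOBEC3C again led at 10.1 ± 0.828 CPM per kb, but APOBEC3B was next at 7.22 ± 0.386. APOBEC3D (2.77 ± 0.286), APOBEC3F (1.91 ± 0.154), APOBEC3G (1.14 ± 0.0479), APOBEC3H (0.743 ± 0.0215) and APOBEC3A (0.157 ± 0.0591) came after it, and no neighbours in the primed order overlapped. By mean level per length, APOBEC3B was thus below APOBEC3F, APOBEC3H and APOBEC3D in naïve hESCs and above them in primed hESCs. By mean CPM without length, APOBEC3B (3.52) was not below APOBEC3H (3.16) in naïve hESCs.

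An alignment was counted for every transcript whose whole genomic span it overlapped, introns included. Spans that join neighbouring members therefore show how far neighbours shared alignments. The transcript ENST00000618553 (chr22:38957522-38992778) reaches from APOBEC3A into APOBEC3B and had 86, 95, 356 and 348 counts. The spans of APOBEC3A-201 and APOBEC3B-204 inside it summed to 88, 100, 353 and 348. At least 2 and 5 alignments in the naïve libraries were thus counted for both genes, against 6 and 12 in all for APOBEC3A. The transcript ENST00000381568 of the gene ENSG00000284554 (chr22:39014363-39033276) covers APOBEC3C and APOBEC3D and had 717, 714, 924 and 1038 counts, a log2 fold change of 0.14 with an adjusted p of 0.393 (edgeR, Benjamini-Hochberg). The counts of APOBEC3C and APOBEC3D together exceeded it by 13, 18, 38 and 28, with 106 bases of APOBEC3C and 1 base of APOBEC3D lying outside it. That excess is small beside 542 to 868 counts of APOBEC3C and larger beside 180 to 220 of APOBEC3D.

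Isoform usage, meaning the share of an isoform among the length-scaled counts of its gene, was then compared. Of the 31 isoforms, 27 in 6 genes could be tested, and 0 were called at an adjusted p under 0.05 with a share difference beyond 0.1 (edgeR's diffSpliceDGE with Benjamini-Hochberg adjustment over 159577 isoforms, of which 0.556% were called). At an unadjusted p under 0.05 there was 1 isoform. Because nested spans take the same alignments, 8 of the isoforms had counts identical to those of another, so that their usage could not be seen separately.

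That 1 isoform was APOBEC3H-205, a retained-intron isoform at the 5′ end of the gene (chr22:39097271-39100536). It had 23, 28, 1 and 4 counts, while the full span of APOBEC3H-204 had 86, 66, 23 and 23. The inner span thus took 26.7% (95% Wilson interval 18.5 to 36.9) and 42.4% (31.2 to 54.4) of the gene's count in the naïve libraries. In the primed libraries it took 4.35% (0.772 to 21.0) and 17.4% (6.98 to 37.1). All intervals cover counting error only, and the intervals of naïve replicate 1 and both primed libraries overlapped. The test gave an unadjusted p of 0.0226 and an adjusted p of 0.301 (edgeR), so the usage difference did not pass the threshold.

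**Figure D4:**
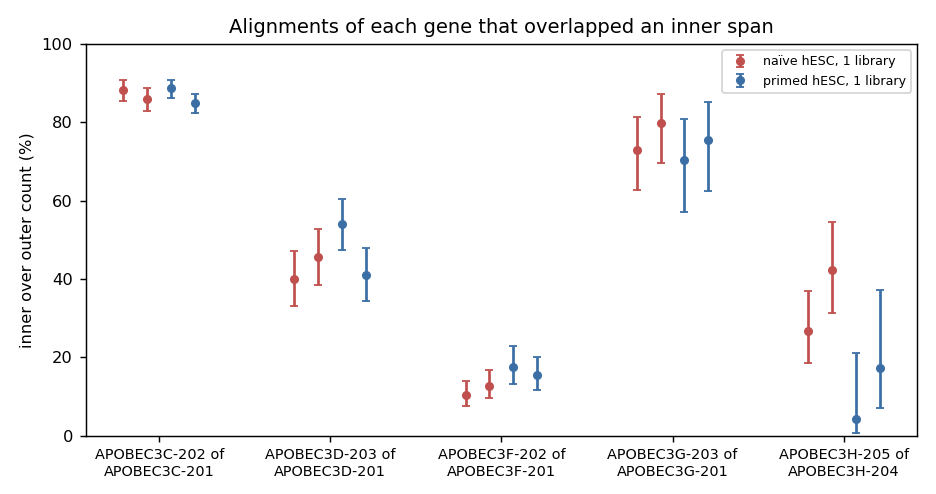
Share of each gene's count (percent) that overlapped an inner isoform span, per library, with 95% Wilson intervals for counting error only; the inner spans of APOBEC3F-202 and APOBEC3G-203 start slightly before the outer ones. APOBEC3H-205 ran from 26.7% to 42.4% in naïve and from 4.35% to 17.4% in primed libraries, while APOBEC3C-202 took 85.0% to 88.7% in all 4.

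Inner shares of the other members differed less between the states. APOBEC3C-202, which ends before the last part of APOBEC3C-201, took 88.4%, 86.1%, 88.7% and 85.0% of its count. APOBEC3D-203 took 39.9%, 45.6%, 54.1% and 40.9%, and APOBEC3F-203, at the middle of its gene, 32.5%, 29.8%, 28.5% and 28.3%. APOBEC3F-202, at the 5′ end, was counted at 10.4%, 12.8%, 17.6% and 15.4% of APOBEC3F-201, and that span begins 7 bases before the outer one. APOBEC3G-203 stood at 70.4% to 79.7% of APOBEC3G-201, with a start 208 bases before it. For APOBEC3F-202 and APOBEC3F-203 the shares of the states did not overlap, and neither isoform had an unadjusted p under 0.05 in the edgeR usage test.

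Relatives of the APOBEC3 genes outside the cluster had few counts. The muscle-associated APOBEC2 was tested (52, 60, 54 and 55 counts; log2 fold change -0.34 with TMM and 0.29 with library size; adjusted p = 0.255, edgeR). The counted span of APOBEC2 overlaps the gene OARD1, and strand was not used, so reads of these genes cannot be told apart. APOBEC1, which edits apolipoprotein B mRNA, had 2 to 5 counts and APOBEC4 had 1 or 2, too few to test. The enzymes that deaminate adenosine are a separate family, and of 6 tested, 4 were higher and 1 lower in primed hESCs with TMM (median 0.49) and 5 higher with library size. Among all genes, 37.4% were higher and 32.6% lower with TMM (median 0.08), and 56.2% higher and 16.3% lower with library size (median 0.72). No test of this list or of those below was run. ADARB2, a brain-associated member of this family without known editing activity, had the largest change at 3.76, from 14 and 8 to 181 and 193 counts. Its counted span (chr10:1177313-1737525) overlaps ADARB2-AS1, LINC00200 and other genes, so these counts may include their reads. Several genes in the lists below also had spans that overlap other genes. ADAT1 and ADAT3, which act on tRNA, were at 0.73 and -0.87.

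Uracil that APOBEC3 enzymes leave in DNA is removed by uracil excision, and the resulting gaps are repaired or copied by error-prone polymerases. Of 15 such genes tested, 1 was higher and 6 were lower with TMM (median -0.06), and 9 were higher and 1 lower with library size (median 0.58). The shares of all genes were 37.4% higher and 32.6% lower with TMM, and 56.2% and 16.3% with library size. Their medians were 0.08 and 0.72. The abasic endonuclease APEX2 was at -1.19, from 408 and 331 to 231 and 170 counts. The translesion polymerase genes REV3L and REV1 were at -0.92 and -0.76, while their partner MAD2L2 was at 0.89. Neither REV gene passed the threshold with library size. UNG, the main uracil glycosylase, had 431, 389, 543 and 432 counts. It was at -0.06 with TMM (adjusted p = 0.755, edgeR) and passed the threshold with library size, at 0.58 (adjusted p = 0.0039).

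Of 15 regulators known to act on APOBEC3 genes, such as NF-κB, interferon signalling and the complexes that repress cell-cycle genes, 2 were higher and 7 lower with TMM (median -0.30), against 7 higher and 1 lower with library size (median 0.33). Beside these stood 37.4% higher and 32.6% lower of all genes with TMM (median 0.08), and 56.2% and 16.3% with library size (median 0.72). NFKB2, of the noncanonical NF-κB pathway, was at -2.10 with TMM and -1.47 with library size, from 204 and 235 to 65 and 61 counts. RB1, the retinoblastoma tumour suppressor, was at 1.72, from 34 and 58 to 153 and 222 counts. IRF9, which partners STAT factors in interferon signalling, and LIN54, the DNA-binding subunit of the DREAM complex, were at -1.14 and -0.95 and did not pass the threshold with library size.

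Interferon receptors and interferon-stimulated genes moved in both directions. Of 14 tested, 3 were higher and 8 lower with TMM (median -1.15), and 5 higher and 7 lower with library size (median -0.52). Over all genes the shares were 37.4% higher and 32.6% lower with TMM (median 0.08), and 56.2% and 16.3% with library size (median 0.72). BST2, which tethers budding virions to the cell, rose from 14 and 7 to 786 and 895 counts, the largest change of this list. IFI6, an interferon-induced mitochondrial protein, fell from 2718 and 2927 to 101 and 114 counts, at -5.02. OAS1, a sensor of double-stranded RNA, was at -3.78 with 46, 34, 6 and 1 counts. IFIT1, which binds viral RNA caps, was at 2.32 with 11, 3, 46 and 42 counts. Spans of both overlap another gene, LIPA in the case of IFIT1, and may include its reads.

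Of 9 other restrictors of retroelements tested, 2 were higher and 4 lower with TMM (median -0.32), against 3 higher and 1 lower with library size (median 0.32). All genes tested had shares of 37.4% higher and 32.6% lower with TMM, and 56.2% and 16.3% with library size. Medians of all genes were 0.08 and 0.72. SAMHD1, which depletes the nucleotides needed for reverse transcription, was lower with either scaling, at -1.17 with TMM, and had 1152, 1259, 637 and 694 counts. PIWIL2, of the piRNA pathway, was at 0.95 from 27 and 38 to 64 and 92 counts. RNASEH2C, a subunit of RNase H2, and ZC3HAV1, an antiviral zinc-finger protein, were at -0.80 and -0.79 and did not pass the threshold with library size.

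**Figure D5:**
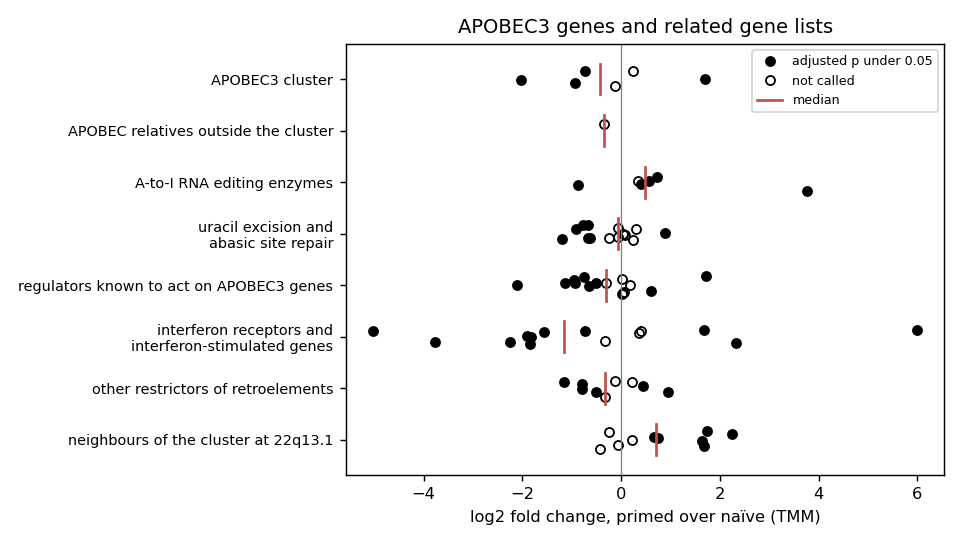
Log2 fold change (primed over naïve, TMM) of each tested gene in the APOBEC3 cluster and in 7 related lists; filled points had an adjusted p under 0.05, open points did not, and red lines are list medians. The 6 APOBEC3 genes ran from -2.03 to 1.70 and interferon-related genes reached down to -5.02 for IFI6, and with library size the medians of all genes and of the lists were higher, with those of uracil repair, regulators and other restrictors above 0.

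The genes whose pattern over the 4 libraries lay nearest to that of a member were found by root mean square distance of centred log2(CPM + 0.1) among 13154 protein-coding genes. For APOBEC3B these were HTR2C (distance 0.0227), HMCN1 (0.0295) and ERCC8 (0.0327), and for APOBEC3H they were SMIM29 (0.0313), DEF6 (0.0410) and TEDC1 (0.0475). For APOBEC3C they were MIGA2 (0.0130), MND1 (0.0145) and EHMT1 (0.0152). APOBEC3F lay nearest to PHPT1 (0.00567), PFDN5 (0.0213) and PCGF3 (0.0213), and APOBEC3G to RBP7 (0.0140), WDR83 (0.0150) and COX7A2L (0.0152). With 4 points per gene and this many genes searched, these are descriptions of likeness in these libraries.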

How the data were processed

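Total RNA of naïve and primed H1 hESCs was reverse transcribed and sequenced as cDNA on the Nanopore platform, with 2 libraries per state. Per the file headers, the deposited values are raw counts that the authors made with featureCounts 2.0.0 from long-read alignments (minimap2) to GRCh38 with Ensembl release 105. Whole transcript spans were counted in long-read mode without strand, and an alignment was counted for each overlapping span, secondary alignments included, so introns and neighbouring genes share alignments.

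Symbols and exonic lengths came from GENCODE 44, in which 242542 of 244825 transcripts had a match (97.9% of them at the same position), and the 2283 others, with 1.00% of counts, were left out. Each gene was given the count of 1 isoform, the one highest on average over the libraries, and was tested where 2 or more libraries had 10 or more counts (edgeR 4.0.16, quasi-likelihood, TMM, Benjamini-Hochberg, two-sided, threshold 0.05; R 4.3.3). SE and 95% intervals derive from the F statistic. Isoform usage was tested with diffSpliceDGE. CPM use TMM-scaled library sizes. Alternatives were DESeq2 1.42.0, library size, count filters, summed isoforms, isoforms without overlap, a replicate block and leaving out each library. Transcript identity came from blastn 2.17.0, and site sequences from GRCh38. The fits were tested on simulated data. Only a few genes changed in those data, so they do not bear on the choice between TMM and library size. Python 3.11.15, pandas 2.3.3 and scipy 1.17.1 were used.

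Depth was 129276054 to 161548901 counts per library. The members and gene lists were chosen with earlier results of these data known. Genes named are the members, genes overlapping them, the 2 to 4 called genes of each list with the largest change, cell type markers, and the 3 nearest patterns of each called member and of the most abundant one. UNG, APOBEC2 and RPL3, not called with TMM, and APOBEC1 and APOBEC4, not tested, are given as values outside that rule. A gene of a related list is not reported here.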

Additional observations from a re-analysis of the deposited data

How the results depend on the processing

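The scaling between libraries decided most member calls. With library size in place of TMM, the log2 fold changes of APOBEC3C and APOBEC3D became 0.88 and 0.51 and passed the threshold, the latter with its sign turned, while APOBEC3F (-0.10) and APOBEC3G (-0.29) no longer passed it. Genes called higher in primed hESCs then rose from 10328 to 15525 and those lower fell from 9009 to 4512. With at least 50 counts required, APOBEC3C passed at 0.35. Restricting to isoforms that overlap no other gene gave 9242 calls in place of 19337 (4902 higher, 4340 lower) and 28 list genes in place of 44, among fewer genes tested, and left APOBEC3B, APOBEC3C and APOBEC3D without a value. Called isoforms numbered 888 with a share difference beyond 0.1, 303 beyond 0.2 and 6809 with no such threshold, with 0 of the members' isoforms called at each (edgeR).

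Leaving out each library in turn gave 13608 to 16840 calls (6975 to 9218 higher, 6625 to 7622 lower), 3 to 5 members, 34 to 42 list genes and 374 to 462 isoforms, with 0 among the members each time. Log2 fold changes ranged from 1.61 to 1.92 for APOBEC3B, 0.13 to 0.49 for APOBEC3C, -0.29 to 0.14 for APOBEC3D, -0.94 to -0.49 for APOBEC3F, -1.11 to -0.72 for APOBEC3G and -2.34 to -1.81 for APOBEC3H. APOBEC3C passed without primed replicate 1, APOBEC3D turned sign without primed replicate 2 (0.14), and APOBEC3G missed the threshold without that library (-0.72). The lone library of a state was assumed to vary like the other state.

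The labels do not say whether libraries with the same replicate number share a batch. Deviations of same-numbered libraries were hardly correlated (r = 0.0317 over 27633 genes), but with 2 libraries per state this cannot settle it. A replicate block gave 19689 calls (10470 higher, 9219 lower), 4 members, 45 list genes and 789 isoforms, and log2 fold changes of 1.70, 0.25, -0.13, -0.73, -0.92 and -2.02 from APOBEC3B to APOBEC3H, and it changed no member's call. The causes of these changes were not tested. Of all recomputed fold changes and counts, 123 kept direction and side of the threshold or, for counts, stayed within 1.5 times. Another 12 counts moved beyond that, 2 fold changes reversed, 3 others newly passed the threshold and 3 no longer did. The APOBEC3D value with library size is placed with the reversed ones, and it also newly passed the threshold. Depth limits APOBEC3A, at 5 to 12 counts, and APOBEC3H-205, at 1 to 28.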

Other observations

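Genes on either side of the APOBEC3 cluster were also compared. Of 10 neighbours tested, 6 were higher in primed hESCs, 0 were lower and 4 did not pass the threshold with TMM (median log2 fold change 0.70, beside 0.08 for all genes, of which 37.4% were higher and 32.6% lower), against 9 higher and 0 lower with library size (median 1.34, beside 0.72 for all genes, of which 56.2% were higher and 16.3% lower). No test of the list was run. NPTXR, a neuronal pentraxin receptor, had 7, 9, 42 and 53 counts and a log2 fold change of 2.25. CBX6 and CBX7, chromodomain subunits of Polycomb repressive complexes, were at 1.74 and 1.67, with 22, 19, 76 and 95 counts and 14, 18, 49 and 78 counts. SYNGR1, a synaptic vesicle protein, had 97, 99, 357 and 401 counts and was at 1.64. RPL3, a ribosomal protein gene farther along the chromosome, past CBX7 and PDGFB, had 38422, 34456, 39094 and 36906 counts. Its log2 fold change was -0.25 with TMM (adjusted p = 0.114, edgeR) and 0.39 with library size (adjusted p = 0.00413), which passed the threshold.

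The 4 pluripotency genes expressed in both states did not move together. POU5F1 had 7606, 6709, 8689 and 8520 counts. Its log2 fold change was -0.05 with TMM (adjusted p = 0.771, edgeR) and 0.59 with library size (adjusted p = 1.99e-04), which passed the threshold. SOX2 and LIN28A were higher in primed hESCs at 2.38 and 2.11, and NANOG was lower at -1.62, with the same directions under library size.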
